A study of Mus musculus with 14 samples.

Results

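The members of the tumor necrosis factor (TNF) superfamily that carry a numbered family symbol were followed in mouse bone marrow-derived macrophages, which are macrophages grown from marrow precursors. Every gene whose symbol begins with Tnfsf or Tnfrsf and a number was taken, which gave 31 of the 25239 gene symbols in the count table, 11 ligands and 20 receptors. RNA was sequenced from 14 cultures in 4 groups. KO cells came from Ezh2fl/fl;LysM-Cre+/- mice, in which a Cre recombinase expressed from the lysozyme M locus removes floxed Ezh2 in myeloid cells, and WT cells came from littermate controls, whose Ezh2 and Cre alleles the labels do not spell out. The groups were KO with conditioned medium (KO CM, 3 libraries), KO in control medium (KO control, 3 libraries), WT with conditioned medium (WT CM, 4 libraries) and WT in control medium (WT control, 4 libraries). The conditioned medium came from Hepa1-6, a mouse hepatoma line, and was given for 24 h, while control cells stayed in complete DMEM. All cells had first been grown for 7 to 10 days in serum with 20% medium of L929 cells, a source of macrophage colony-stimulating factor. The labels give no age or sex and no medium conditioned by another cell line. They do not say whether the libraries of a group came from separate mice, so the p-values speak of the spread among these cultures, which may be technical.

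Ligands of this family are mostly trimers on the cell surface, and many are cut off it by proteases. Their receptors either carry a death domain, through which caspases can be engaged, or recruit TRAF adaptors that lead to NF-kB, and some are decoys without a signalling tail. In macrophages the family is known for TNF itself and for the B cell survival factors BAFF (Tnfsf13b) and APRIL (Tnfsf13). It also includes RANK (Tnfrsf11a), the receptor through which macrophage precursors become osteoclasts.

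Summed exon counts were 40.2 to 61.5 M per library in KO CM, 41.8 to 54.4 M in KO control, 41.3 to 85.8 M in WT CM and 45.2 to 82.1 M in WT control (M, megacounts). In KO libraries 2 exon entries of Ezh2 of 81 and 85 bp held 2.1 to 31.7% of the count per base of its other exons, against 94.0 to 169.5% in WT libraries, so residual counts remained. These entries were chosen with earlier results of these data known. WT libraries 3 and 4 of both media stood apart from the other 10 libraries on the second principal component (14.9% of variance, from -31.8 to -29 against 3.3 to 22.2), and were the deepest. The labels name no batch, and values for each pair of WT libraries are given below where a member's call depends on the pair. Where the WT library pairs enter a fit as a term, all KO libraries share the level of WT libraries 1 and 2. No label states that KO belongs with that pair. All 7 macrophage markers were expressed. Their sum without Lyz2 was 9718 to 10223 CPM (counts per M after TMM scaling of the library total) in KO CM and 11073 to 11483 CPM in KO control. In WT the sum was 10162 to 10687 CPM in CM and 10866 to 11735 CPM in control medium. Within it, Adgre1 averaged 1900 CPM in KO CM and 3687 CPM in KO control, and 2097 CPM in WT CM and 3381 CPM in WT control. Csf1r also had lower means in CM in both genotypes, and the other markers of the sum are not given singly. Lyz2, the lysozyme gene whose locus carries the Cre, lay at 9312 to 10322 CPM in KO libraries and 19049 to 24177 CPM in WT libraries. Summed T cell markers were 0.482 to 1.40 CPM with Cd3d and Cd3g at 0, B cell markers 0.741 to 2.43 CPM with Pax5 and Blk at 0, and NK cell markers 0 to 0.326 CPM with Ncr1 and Prf1 at 0. Markers of hepatocytes or hepatoma cells summed to 4.33 to 7.42 CPM with Alb at 0. Of the 8 markers of neutrophils and their precursors, 2 reached a mean of 1 CPM in at least 1 group, and none was at 0 throughout. The 8 summed to 89.8 to 96.5 CPM in KO CM, 22.2 to 24.3 CPM in KO control, 48.8 to 53.0 CPM in WT CM and 13.2 to 16.7 CPM in WT control. That sum moved with both the medium and the genotype, and its part in the results below was not tested. In bulk RNA, fewer cells of a type and less RNA per cell cannot be told apart.

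The promoters of 4 members are shown because their genes stand for the main patterns, a ligand that rose, a ligand that fell, the receptor with the highest CPM and RANK. The sequences are RefSeq promoters of the GRCm38.p6 build, from 250 bases before to 50 after the start, printed 5′ to 3′ on the gene's strand. Of the 31 members, 24 matched that table, with 28 promoters. In the first 3 the capitals mark matches, on either strand, to 6 motifs, namely AP-1 (TGANTCA), STAT (TTCNNNGAA), ISRE (GAAA, any 2 bases, then GAAA), PU.1 (GAGGAA), NF-kB and CRE (TGACGTCA). In the promoter of Tnfrsf11a, which held none of these letters, the capitals mark CpG dinucleotides.
Tnfsf14, chr17:57194132-57194431, minus strand: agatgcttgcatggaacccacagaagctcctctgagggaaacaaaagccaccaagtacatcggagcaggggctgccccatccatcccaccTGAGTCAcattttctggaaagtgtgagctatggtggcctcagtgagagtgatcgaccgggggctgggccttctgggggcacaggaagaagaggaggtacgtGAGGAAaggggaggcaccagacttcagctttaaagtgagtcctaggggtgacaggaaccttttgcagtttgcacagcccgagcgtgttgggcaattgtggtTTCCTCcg
Tnfsf13b, chr8:10006383-10006682, plus strand: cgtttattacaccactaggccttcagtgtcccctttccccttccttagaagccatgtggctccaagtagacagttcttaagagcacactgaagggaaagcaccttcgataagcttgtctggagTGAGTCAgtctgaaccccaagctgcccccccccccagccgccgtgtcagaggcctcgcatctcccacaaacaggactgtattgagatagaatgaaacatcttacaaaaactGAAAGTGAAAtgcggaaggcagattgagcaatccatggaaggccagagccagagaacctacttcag
Tnfrsf1b, chr4:145246821-145247120, minus strand: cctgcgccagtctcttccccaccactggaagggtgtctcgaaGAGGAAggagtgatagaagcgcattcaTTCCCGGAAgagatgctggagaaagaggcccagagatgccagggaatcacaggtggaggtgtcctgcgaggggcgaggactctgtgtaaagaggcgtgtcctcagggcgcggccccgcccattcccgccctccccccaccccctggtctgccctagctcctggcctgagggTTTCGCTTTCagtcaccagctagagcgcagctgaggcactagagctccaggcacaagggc
Tnfrsf11a, chr1:105780473-105780772, plus strand: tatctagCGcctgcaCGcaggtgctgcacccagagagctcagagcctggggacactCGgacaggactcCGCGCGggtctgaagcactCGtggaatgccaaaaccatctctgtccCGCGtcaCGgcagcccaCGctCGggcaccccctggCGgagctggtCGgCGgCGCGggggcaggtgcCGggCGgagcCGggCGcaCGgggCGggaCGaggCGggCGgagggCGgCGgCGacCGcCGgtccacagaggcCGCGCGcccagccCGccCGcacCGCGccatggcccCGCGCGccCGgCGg
The Tnfsf14 promoter held 1 AP-1 and 2 PU.1 matches, the Tnfsf13b promoter shown 1 AP-1 and 1 ISRE match, and the Tnfrsf1b promoter 1 STAT, 1 ISRE and 1 PU.1 match. Another Tnfsf13b promoter, chr8:10006217-10006516, is not shown and held 1 AP-1 match and no ISRE match. Of 32851 promoters of this length, 7.8% held AP-1, 8.3% STAT, 3.4% ISRE, 28.3% PU.1, 8.5% NF-kB and 1.8% CRE letters. Of the 28 member promoters, 6 held AP-1, 6 STAT, 4 ISRE, 9 PU.1, 3 NF-kB and 0 CRE letters. Some members had more than 1 promoter. The 2 windows of Tnfsf13b overlap and hold the same AP-1 site, which counts for both. Tnfrsf11a had 43 CpG dinucleotides, an observed over expected ratio of 0.98, and Tnfsf14 had 7, a ratio of 0.31, against a median of 0.38 over all promoters. A match describes letters in this window and shows no binding, and no factor or histone mark was measured here.

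Most of the family was expressed in these macrophages, at levels that differed widely. Of the 31 members, 20 reached a mean of 1 CPM in at least 1 group, 7 ligands and 13 receptors, and 17 were at 1 CPM or more in every library. Among the 20, Tnfrsf8 and Tnfrsf13b had few or no counts in several of their exon entries, as given below. The filter on low counts passed 22 members, which were tested. Tnfrsf1b, TNF receptor 2, had the highest CPM, with 484 ± 9.20 CPM in KO CM, 641 ± 15.2 in KO control, 449.8 ± 38.6 in WT CM and 588 ± 73.7 in WT control (SD, n = 3, 3, 4 and 4). It alone made up 43.1, 52.6, 40.8 and 49.2% of the family's summed CPM in these 4 groups.

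Levels of different genes were compared per kilobase of their summed exon entries. A fragment across exons may count once per exon, which can raise this value in genes made of short exons. Tnfrsf14 has 8 entries of 32 to 164 bp, while an entry of 3733 bp makes up most of the 4913 bp of Tnfrsf1b. The ranks of genes below carry this limit, and the SDs cover only the spread among libraries. On that scale Tnfrsf1b stood at 98.4 ± 1.87 CPM per kb in KO CM, 130.5 ± 3.09 in KO control, 91.6 ± 7.86 in WT CM and 119.7 ± 15.01 in WT control. Tnfrsf14, the herpesvirus entry mediator HVEM, had 109 ± 2.23 CPM per kb in KO CM, 67.5 ± 3.56 in KO control, 92 ± 14.01 in WT CM and 64.4 ± 19.2 in WT control. Tnfrsf1b was the higher of these 2 receptors in both control groups by more than their SDs, Tnfrsf14 was the higher in KO CM by more than the SDs, and in WT CM they did not differ beyond their spread. Tnfrsf1a, TNF receptor 1, had 75.7 ± 6.004 CPM per kb in KO CM, 66.2 ± 2.54 in KO control, 71.1 ± 3.13 in WT CM and 65.7 ± 2.38 in WT control. The TWEAK gene Tnfsf12 had 65.1 ± 3.37, 73.2 ± 5.48, 72.8 ± 4.56 and 78.01 ± 5.83 CPM per kb in the same 4 groups. Both lay below Tnfrsf1b in every group, and below Tnfrsf14 in both CM groups, by more than the summed SDs. In KO control Tnfsf12, Tnfrsf14 and Tnfrsf1a did not differ beyond their spread, and in WT control Tnfsf12 lay above Tnfrsf1a by more than the SDs while Tnfrsf14, with its wide spread, overlapped both. Tnfsf13, the gene for APRIL, was the fifth in each group, with 44.5 to 55.1 CPM per kb.

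**Figure D1:**
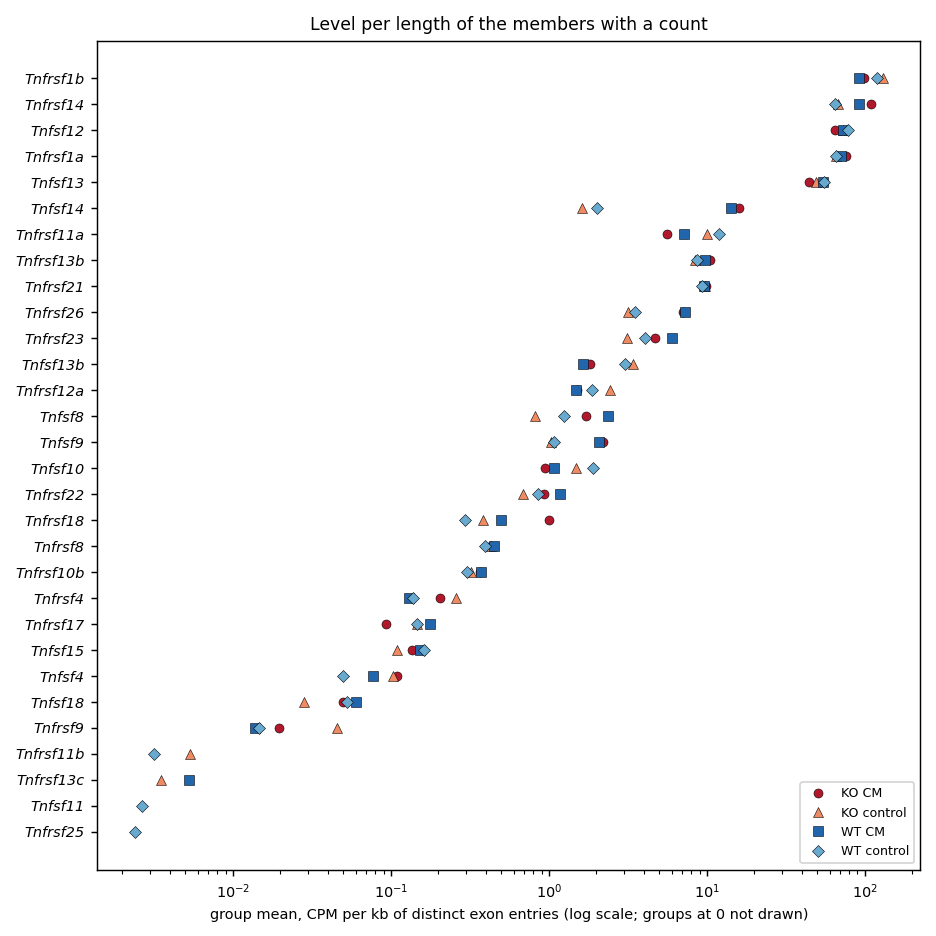
Mean level of each member with a count in each group, in CPM per kb of distinct exon entries on a log scale, with groups at 0 not drawn. Tnfrsf1b has the highest value on this scale in both control groups, and Tnfsf14 is the member whose CM and control means lie farthest apart among those above 1 CPM per kb.

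The first question is what the hepatoma-conditioned medium did to the family in each genotype. In both genotypes 6 members rose, the ligand genes Tnfsf14 (LIGHT), Tnfsf8 (CD30 ligand) and Tnfsf9 (the ligand of CD137) and the receptor genes Tnfrsf26, Tnfrsf23 and Tnfrsf14. In both 4 fell, the ligand genes Tnfsf13b (BAFF) and Tnfsf10 (TRAIL) and the receptor genes Tnfrsf11a (RANK) and Tnfrsf1b. In KO macrophages 9 of the 22 tested members were higher and 4 lower in CM at an adjusted p below 0.05 (edgeR's quasi-likelihood test, Benjamini-Hochberg adjustment over all 13311 tested genes), where 20.0% of all tested genes were called higher and 18.2% lower. In WT macrophages 6 were higher and 4 lower, where 19.3% of all genes were called higher and 18.0% lower. The counts of members that fell lie near this background and are no result about the family. The counts that rose were not tested as a set, so they are not read as a result about the family either. Without KO control library 1 the KO count of 9 was 6, where 16.9% of all genes were called higher. The CM and control libraries did not overlap for 16 of the 22 members in KO and 10 in WT, where 54.6 and 33.8% of all tested genes did not. The members' median log2 change was 0.19 in KO and 0.15 in WT, and the median of all genes was -0.01 in each. Scaling by library totals alone shifted the median of all genes to -0.119 in KO and -0.088 in WT. It gave 7 members higher and 7 lower in KO, where 14.6 and 27.2% of all genes were called, and 6 higher and 5 lower in WT, where 14.7 and 26.3% were, with the direction of each of the 10 members above unchanged. Each of the 10 kept its direction in WT when only libraries 1 and 2, or only 3 and 4, were used.

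**Figure D2:**
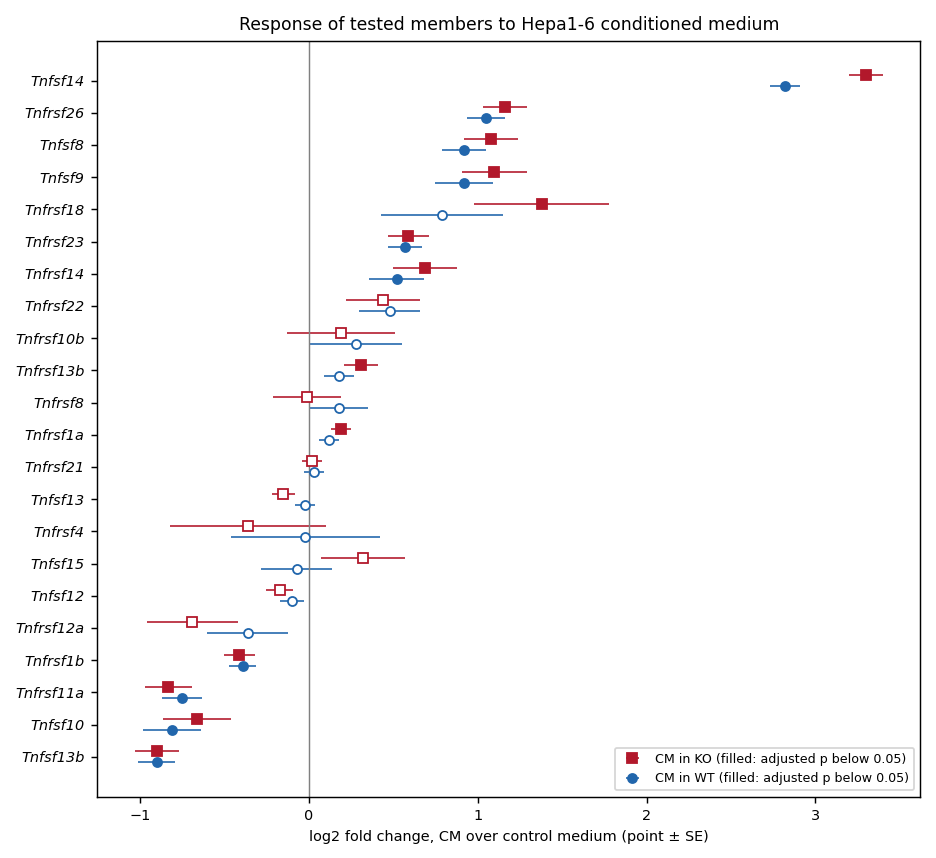
Log2 fold change of CM over control medium for the 22 tested members, with SE, in KO (squares) and WT (circles) macrophages; filled symbols have an adjusted p below 0.05. Tnfsf14 stands at 3.30 in KO and 2.82 in WT, and the 10 members called in both genotypes lie on the same side of 0 in each.

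Tnfsf14 showed the largest response of the family. It encodes LIGHT, a costimulatory ligand of HVEM and of the lymphotoxin beta receptor, and lies on chromosome 17 from 57189492 to 57194177 (GRCm38). Tnfsf14 had 28.8, 31.9 and 28.6 CPM in KO CM libraries, against 2.86, 2.77 and 3.46 CPM in KO control libraries. WT macrophages had 24.9, 27.3, 25.1 and 29.3 CPM in CM, against 3.86, 3.52, 3.98 and 3.68 CPM in control medium. Every CM library stood several times above every control library, and WT libraries 3 and 4 lay among the others. The log2 change was 3.30 ± 0.10 (edgeR adjusted p = 3.62e-12) in KO and 2.82 ± 0.09 (edgeR adjusted p = 2.04e-12) in WT, which is 9.86-fold and 7.08-fold. All 4 of its exon entries with 200 or more counts were higher in CM, by 3.15 to 3.59 on the log2 scale in KO and 2.70 to 2.87 in WT. Libraries 1 and 2 of WT gave 2.82 by themselves, and 3 and 4 gave 2.83.

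Tnfsf8 and Tnfsf9 encode costimulatory ligands best known from activated lymphocytes and antigen-presenting cells, and both stayed at a few CPM. Tnfsf8 had 3.88, 3.57 and 4.10 CPM in KO CM, against 1.71, 1.98 and 1.77 CPM in KO control. The WT libraries had 5.87, 4.61, 5.67 and 5.11 CPM in CM, against 2.48, 2.25, 3.07 and 3.36 CPM in control medium. The CM and control libraries of each genotype did not overlap, and the KO CM libraries were all below the WT CM libraries. The log2 change was 1.08 ± 0.16 (edgeR adjusted p = 6.86e-05) in KO and 0.92 ± 0.13 (edgeR adjusted p = 4.60e-05) in WT, with 1.14 in WT libraries 1 and 2 and 0.75 in 3 and 4. Tnfsf9 had 2.97, 3.17 and 2.04 CPM in KO CM, against 1, 1.58 and 1.22 CPM in KO control, a log2 change of 1.10 ± 0.19 (edgeR adjusted p = 3.36e-04). In WT it had 2.83, 2.52, 2.44 and 2.36 CPM in CM, against 1.28, 1.37, 1.35 and 1.33 CPM in control medium, a log2 change of 0.92 ± 0.17 (edgeR adjusted p = 3.45e-04). Every CM library of Tnfsf9 again exceeded every control library of its genotype. It lies on chromosome 17 from 57105325 to 57107757 (GRCm38), close to Tnfsf14, and 14.9% of its exonic bases overlap Gm11110 on the opposite strand, whose reads cannot be told apart unless the counting used strand, which is not given in the sources used here. Gm11110 moved with Tnfsf9, at 1.85 ± 0.338 CPM in KO CM and 0.729 ± 0.356 CPM in KO control (1.37 ± 0.30, edgeR adjusted p = 0.00174), and 1.87 ± 0.206 CPM in WT CM and 1.10 ± 0.267 CPM in WT control (0.78 ± 0.24, edgeR adjusted p = 0.0189), and its part in the Tnfsf9 values was not tested.

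The ligand genes that fell were those for BAFF, which supports B cell survival, and TRAIL, which can trigger death through DR5. Tnfsf13b had 4.90, 3.81 and 4.43 CPM in KO CM, against 7.29, 8.70 and 8.49 CPM in KO control. WT macrophages had 4.31, 3.99, 3.31 and 4.16 CPM in CM, against 6.78, 7.14, 7.32 and 8.01 CPM in control medium. All CM libraries lay below all control libraries, and the log2 change was -0.90 ± 0.13 (edgeR adjusted p = 4.27e-05) in KO and -0.90 ± 0.11 (edgeR adjusted p = 8.81e-06) in WT, with -0.75 in WT libraries 1 and 2 and -1.03 in 3 and 4. All 8 of its exon entries were lower in CM in each genotype. Those of 694 and 528 bp held 651 and 647 counts, and whether they overlap was not tested. Tnfsf10 had 5.56, 4.53 and 4.02 CPM in KO CM, against 8.47, 7.64 and 5.98 CPM in KO control. The WT libraries had 3.84, 4.33, 6.91 and 6.14 CPM in CM, against 9.58, 9.61, 9.49 and 9.01 CPM in control medium. The groups did not overlap within either genotype, but the WT CM libraries split, with 1 and 2 lower than 3 and 4. Tnfsf10 changed by -0.66 ± 0.20 (edgeR adjusted p = 0.0153) in KO and -0.81 ± 0.17 (edgeR adjusted p = 0.0011) in WT, with -1.23 in WT libraries 1 and 2 and -0.50 in 3 and 4. The KO call was lost without KO control library 1 (-0.54, edgeR adjusted p = 0.0724) or KO CM library 2 (-0.63, 0.0515) or 3 (-0.55, 0.073).

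The 2 most abundant ligand genes, Tnfsf12 (TWEAK) and Tnfsf13 (APRIL), lie next to each other on chromosome 11 and did not pass for the medium. Tnfsf12 averaged 110.3 ± 5.71 CPM in KO CM and 124 ± 9.28 CPM in KO control (-0.17 ± 0.08, edgeR adjusted p = 0.102), and 123 ± 7.73 CPM in WT CM and 132 ± 9.87 CPM in WT control (-0.10 ± 0.07, edgeR adjusted p = 0.27). Tnfsf13 averaged 79.8 ± 3.22 CPM in KO CM and 88.8 ± 4.63 CPM in KO control (-0.15 ± 0.07, edgeR adjusted p = 0.107), and 97.4 ± 7.76 CPM in WT CM and 98.8 ± 5.33 CPM in WT control (-0.02 ± 0.06, edgeR adjusted p = 0.836). In KO the CM and control libraries of each gene did not overlap, although the fold was small. Scaling by library totals alone called Tnfsf12 lower in both genotypes (-0.28 in KO and -0.18 in WT) and Tnfsf13 lower in KO (-0.26). Both were also called lower in KO, at values of -0.17 and -0.15, with the WT library pairs as a term and with either pair of WT libraries left out, and Tnfsf12 with the replicate block. Counts of these 2 genes are uncertain, because 6 of the 7 exon entries of each are counted identically in Tnfsfm13, a read-through of both, and hold 66.2% of the Tnfsf12 and 87.7% of the Tnfsf13 count. Tnfsfm13 itself changed by -0.18 ± 0.06 (edgeR adjusted p = 0.0166) in KO and -0.06 ± 0.05 (edgeR adjusted p = 0.372) in WT. Tnfsf15 (TL1A), tested although below 1 CPM in every group, averaged 0.783 ± 0.172 CPM in KO CM and 0.632 ± 0.0300 CPM in KO control, and 0.890 ± 0.139 CPM in WT CM and 0.940 ± 0.202 CPM in WT control, and did not pass in KO (0.32 ± 0.25, edgeR adjusted p = 0.354) or WT (-0.07 ± 0.21, edgeR adjusted p = 0.843).

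**Figure D3:**
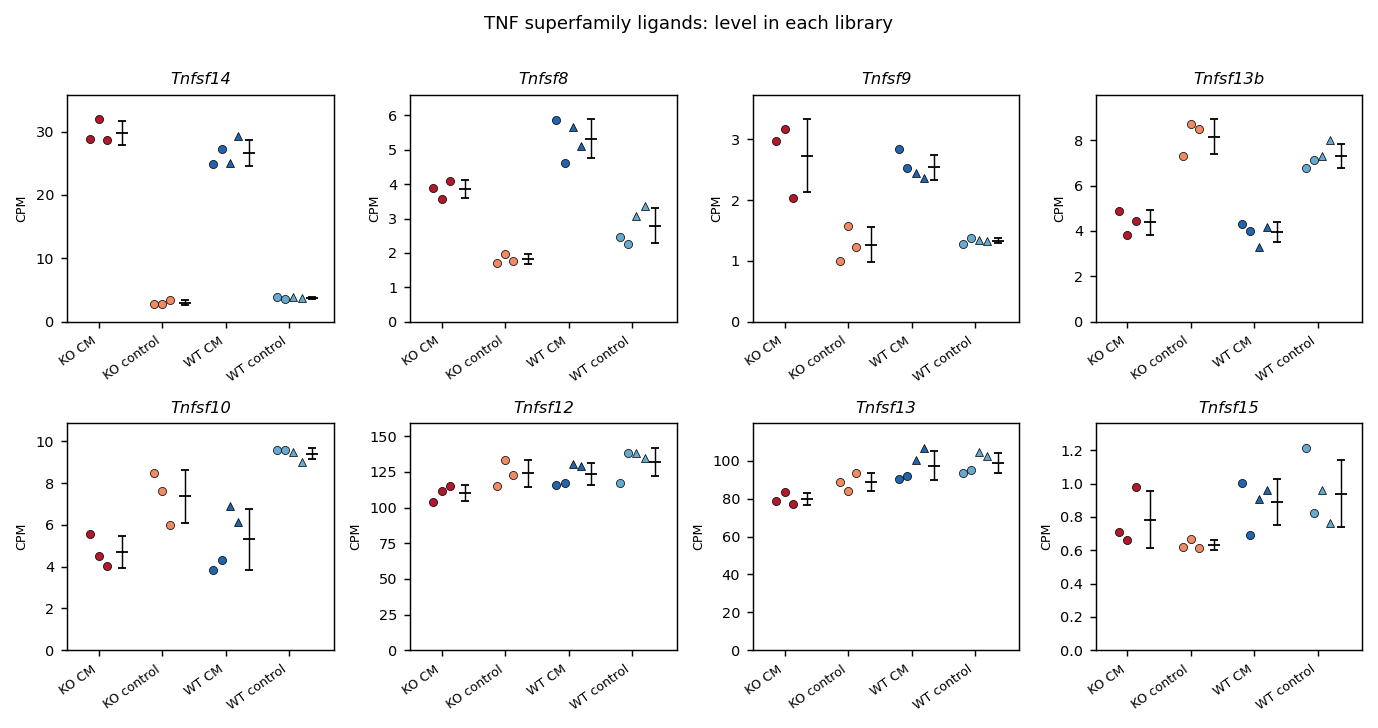
Level of the 8 tested ligand genes in each library (CPM, axes from 0), with triangles for WT libraries 3 and 4 and bars for the group mean ± SD. Tnfsf14 libraries sit between 24.9 and 31.9 CPM in CM and between 2.77 and 3.98 CPM in control medium.

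Among the receptor genes that rose, 2 belong to a cluster on chromosome 7 that mice carry, Tnfrsf26 (143607659 to 143628722), Tnfrsf22 (143634806 to 143649661) and Tnfrsf23 (143665809 to 143685872, all GRCm38, minus strand). Tnfrsf22 and Tnfrsf23 encode decoy receptors of TRAIL in mice. Tnfrsf26 had 20.8, 20.5 and 22.01 CPM in KO CM, against 9.02, 8.78 and 10.5 CPM in KO control. In WT it had 23.3, 24.4, 19.95 and 18.6 CPM in CM, against 12.2, 11.4, 9.001 and 9.03 CPM in control medium. Every CM library stood above every control library, with WT libraries 3 and 4 below 1 and 2 in each medium. The log2 change was 1.16 ± 0.13 (edgeR adjusted p = 4.33e-06) in KO and 1.05 ± 0.11 (edgeR adjusted p = 2.23e-06) in WT, with 1.01 in WT libraries 1 and 2 and 1.10 in 3 and 4. Tnfrsf23 had 15.6, 16.6 and 17.1 CPM in KO CM, against 11.7, 11.2 and 9.71 CPM in KO control. WT macrophages had 21.1, 20.8, 21.6 and 20.7 CPM in CM, against 16.98, 15.3, 12.8 and 11.7 CPM in control medium. The media did not overlap within either genotype, and the KO CM libraries lay below all WT CM libraries. It rose by 0.59 ± 0.12 (edgeR adjusted p = 8.92e-04) in KO and 0.57 ± 0.10 (edgeR adjusted p = 2.87e-04) in WT, with 0.37 in WT libraries 1 and 2 and 0.79 in 3 and 4.

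Tnfrsf22, the third gene of the cluster, did not pass. It averaged 3.93 ± 0.700 CPM in KO CM and 2.92 ± 0.786 CPM in KO control (0.44 ± 0.22, edgeR adjusted p = 0.133), and 4.995 ± 0.889 CPM in WT CM and 3.58 ± 0.597 CPM in WT control (0.48 ± 0.18, edgeR adjusted p = 0.0528). With the replicate number as a block, the WT change of 0.48 passed (edgeR adjusted p = 0.00211), and it also passed without WT control library 3 (0.58, 0.0336), WT CM library 2 (0.59, 0.0203) or KO control library 2 or 3 (0.48, 0.0335 and 0.0467), by DESeq2 (0.48, 0.0345), with the WT library pairs as a term (0.48, 0.0125) and on the most-counted exon (0.49, 0.0152). The KO change passed with the replicate block (0.45, edgeR adjusted p = 0.0105), with the pairs as a term (0.44, 0.0492) and on the most-counted exon (0.54, 0.028). Tnfrsf22 and Tnfrsf23 share 12.6 and 13.1% of their 75-base stretches, so reads could be split between them and both values are uncertain. E230032D23Rik on the opposite strand overlaps 4.1% of the exonic bases of Tnfrsf23 and 3.3% of those of Tnfrsf26, and changed by 0.65 ± 0.13 (edgeR adjusted p = 0.00115) in KO and 0.54 ± 0.11 (edgeR adjusted p = 0.00131) in WT.

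Tnfrsf14 encodes HVEM, the receptor of LIGHT. Tnfrsf14 had 97.8, 95.4 and 99.4 CPM in KO CM, against 61.8, 62.4 and 56.6 CPM in KO control. The WT libraries had 89.1, 96.2, 70.4 and 72.9 CPM in CM, against 69.1, 75.2, 44.7 and 40.95 CPM in control medium. The KO groups were far apart, while in WT libraries 3 and 4 were lower than 1 and 2 in both media, so that WT CM and WT control overlapped. The log2 change was 0.69 ± 0.19 (edgeR adjusted p = 0.00805) in KO and 0.52 ± 0.16 (edgeR adjusted p = 0.0197) in WT, with 0.36 in WT libraries 1 and 2 (edgeR adjusted p = 7.23e-04) and 0.75 in 3 and 4 (2.71e-07). The WT change passed at 0.55 with the replicate block (edgeR adjusted p = 0.00113) and with the library pairs as a term (7.18e-07), and CM was higher in all 4 pairs of WT libraries with the same number. Without a term for the number or the pair, the WT call was lost without WT control library 3 (0.41, edgeR adjusted p = 0.0609) or 4 (0.38, 0.0562), without WT CM library 1 (0.47, 0.0529) or 2 (0.43, 0.0671), and on the most-counted exon alone (0.44, 0.0502). The other receptor of LIGHT, Ltbr, changed by 0.37 ± 0.06 (edgeR adjusted p = 1.96e-04) in KO and 0.14 ± 0.05 (edgeR adjusted p = 0.0537) in WT. The Ltbr call in KO was lost on the most-counted exon (0.26, edgeR adjusted p = 0.156), and the WT change passed with the replicate block (0.14, 0.0425), with the pairs as a term (0.14, 0.0138), in WT libraries 3 and 4 alone (0.21, 0.0158), without WT control library 2 (0.17, 0.0256) and by DESeq2 (0.14, 0.0368).

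Tnfrsf11a encodes RANK and lies on chromosome 1 from 105780718 to 105847981 (GRCm38). It had 28.5, 29.2 and 27.3 CPM in KO CM, against 46.9, 51.1 and 53.3 CPM in KO control. In WT it had 31.3, 31.5, 41.4 and 39.2 CPM in CM, against 51.4, 50.6, 72.2 and 67.6 CPM in control medium. The CM libraries of each genotype were all below its control libraries, with WT libraries 3 and 4 above 1 and 2. Tnfrsf11a fell (-0.83 ± 0.14, edgeR adjusted p = 1.86e-04 in KO and -0.75 ± 0.12, edgeR adjusted p = 1.07e-04 in WT), with changes of -0.70 in WT libraries 1 and 2 and -0.79 in 3 and 4. All 10 of its exon entries were lower in CM in both genotypes. Its ligand RANKL (Tnfsf11) had 2 counts in all 14 libraries and the decoy osteoprotegerin (Tnfrsf11b) 5.

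The 2 receptors of TNF differed in their values in CM, Tnfrsf1b being called lower in both genotypes and Tnfrsf1a higher in KO alone. Tnfrsf1b had 487, 473 and 491 CPM in KO CM, against 635, 658 and 630.1 CPM in KO control. WT macrophages had 492.6, 470.2, 429 and 408 CPM in CM, against 639, 663, 528 and 521 CPM in control medium. It was lower in every CM library than in every control library of its genotype, and fell (-0.41 ± 0.09, edgeR adjusted p = 0.00235 in KO and -0.39 ± 0.08, edgeR adjusted p = 0.00115 in WT), with changes of -0.44 in WT libraries 1 and 2 and -0.32 in 3 and 4. Tnfrsf1a, the receptor with a death domain, had 154, 157 and 178 CPM in KO CM, against 139, 149 and 140.2 CPM in KO control. The WT libraries had 148, 147, 160.5 and 158 CPM in CM, against 143, 146, 142 and 134 CPM in control medium. The groups came close to each other without overlapping, and the change passed in KO (0.19 ± 0.06, edgeR adjusted p = 0.0261) but not in WT (0.12 ± 0.06, edgeR adjusted p = 0.116). The KO call was lost with library totals alone (0.09, edgeR adjusted p = 0.282) and without KO control library 1 (0.17, 0.0912) or 3 (0.18, 0.0791) or KO CM library 3 (0.13, 0.139). With WT libraries 3 and 4 alone Tnfrsf1a passed in WT (0.21, 0.0228), and with 1 and 2 alone the change was 0.02. Tnf, the gene of their ligand, averaged 2.10 ± 0.377 CPM in KO CM and 4.72 ± 0.957 CPM in KO control, and 2.60 ± 0.214 CPM in WT CM and 6.13 ± 0.892 CPM in WT control, and fell (-1.19 ± 0.18, edgeR adjusted p = 1.01e-04 in KO and -1.23 ± 0.15, edgeR adjusted p = 1.05e-05 in WT).

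Another 2 receptor genes passed in KO macrophages. Tnfrsf18 (GITR) had 1.02, 0.914 and 1.16 CPM in KO CM, against 0.182, 0.614 and 0.385 CPM in KO control. In WT it had 0.677, 0.366, 0.591 and 0.426 CPM in CM, against 0.282, 0.470, 0.206 and 0.250 CPM in control medium. It stayed near or below 1 CPM throughout, and the WT groups overlapped. The change was 1.38 ± 0.40 (edgeR adjusted p = 0.012) in KO, lost without KO control library 1 (1.03, edgeR adjusted p = 0.0551), and 0.79 ± 0.36 (edgeR adjusted p = 0.0985) in WT, which passed without WT control library 2 (1.07, 0.0355) and was 0.44 in WT libraries 1 and 2 and 1.15 in 3 and 4, neither past the threshold (edgeR adjusted p = 0.574 and 0.068). Gm16008 on the opposite strand overlaps 27.2% of its exonic bases. Tnfrsf13b (TACI), a receptor of BAFF and APRIL, had 30.9, 26.9 and 31.7 CPM in KO CM, against 22.9, 23.6 and 25.6 CPM in KO control. WT macrophages had 24.1, 28.6, 27.1 and 31.3 CPM in CM, against 23.3, 23.4, 23.9 and 27.5 CPM in control medium, and these WT groups overlapped. The change was 0.31 ± 0.10 (edgeR adjusted p = 0.0209) in KO and 0.18 ± 0.09 (edgeR adjusted p = 0.115) in WT. The KO call was lost with library totals alone (0.21, edgeR adjusted p = 0.114) and without KO control library 1 (0.28, 0.0805) or 2 (0.30, 0.0635) or KO CM library 1 (0.29, 0.0676) or 3 (0.27, 0.0826). In WT the replicate block let Tnfrsf13b pass (0.18, edgeR adjusted p = 0.048), as did the library pairs as a term (0.18, 0.0457), the most-counted exon (0.19, 0.042) and leaving out WT control library 4 (0.24, 0.0455) or WT CM library 1 (0.24, 0.0399). Its exon entries of 2194, 177 and 46 bp held 18314, 2276 and 1006 counts over all 14 libraries. Those of 231, 130 and 61 bp held 0, 1 and 0. Whether the counts come from the full TACI transcript was not tested.

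The other 5 tested receptor genes did not pass for the medium in either genotype, although the KO change of Tnfrsf12a passed under several alternatives. Tnfrsf21 (death receptor 6) averaged 35.98 ± 0.607 CPM in KO CM and 35.5 ± 0.772 CPM in KO control, and 34.7 ± 1.80 CPM in WT CM and 33.9 ± 1.84 CPM in WT control. Its changes were 0.02 ± 0.06 (edgeR adjusted p = 0.856) in KO and 0.03 ± 0.06 (edgeR adjusted p = 0.692) in WT, with the smallest SE among these 5. Tnfrsf12a (Fn14), the receptor of TWEAK, averaged 1.45 ± 0.373 CPM in KO CM and 2.36 ± 0.158 CPM in KO control, and 1.44 ± 0.604 CPM in WT CM and 1.82 ± 0.264 CPM in WT control. Its change was -0.69 ± 0.27 (edgeR adjusted p = 0.0613) in KO and -0.36 ± 0.24 (edgeR adjusted p = 0.255) in WT. WT CM library 1, at 2.33 CPM against 1.01 to 1.25 CPM in the other WT CM libraries, stood apart. Without that library the change was -0.69 in KO (edgeR adjusted p = 0.0143) and -0.68 in WT (0.0126), and without KO CM library 3 it was -0.89 in KO (0.0429). The KO change also passed by DESeq2 (-0.69, DESeq2 adjusted p = 0.0397), and by edgeR with library totals alone (-0.79, 0.032), with the WT library pairs as a term (-0.68, 0.0192), without WT libraries 3 and 4 (-0.68, 0.0292) or 1 and 2 (-0.68, 0.0107) and with all exon entries (-0.72, 0.0415), but not with the replicate block (-0.68, 0.0738). The KO CM and KO control libraries of Tnfrsf12a did not overlap. Its WT change was -0.16 in libraries 1 and 2 and -0.61 in 3 and 4. Tnfrsf8 (CD30), Tnfrsf10b (DR5) and Tnfrsf4 (OX40) had group means of 1.35 to 1.54, 0.961 to 1.18 and 0.152 to 0.297 CPM, and adjusted p-values for the medium of 0.442 or more in edgeR's test. Of the 1181 counts of Tnfrsf8 over all libraries, 1016 lay in its exon entry of 2104 bp and 103 in that of 214 bp. Its other entries held 0 to 32 counts each. Whether the counts come from the full CD30 transcript was not tested.

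**Figure D4:**
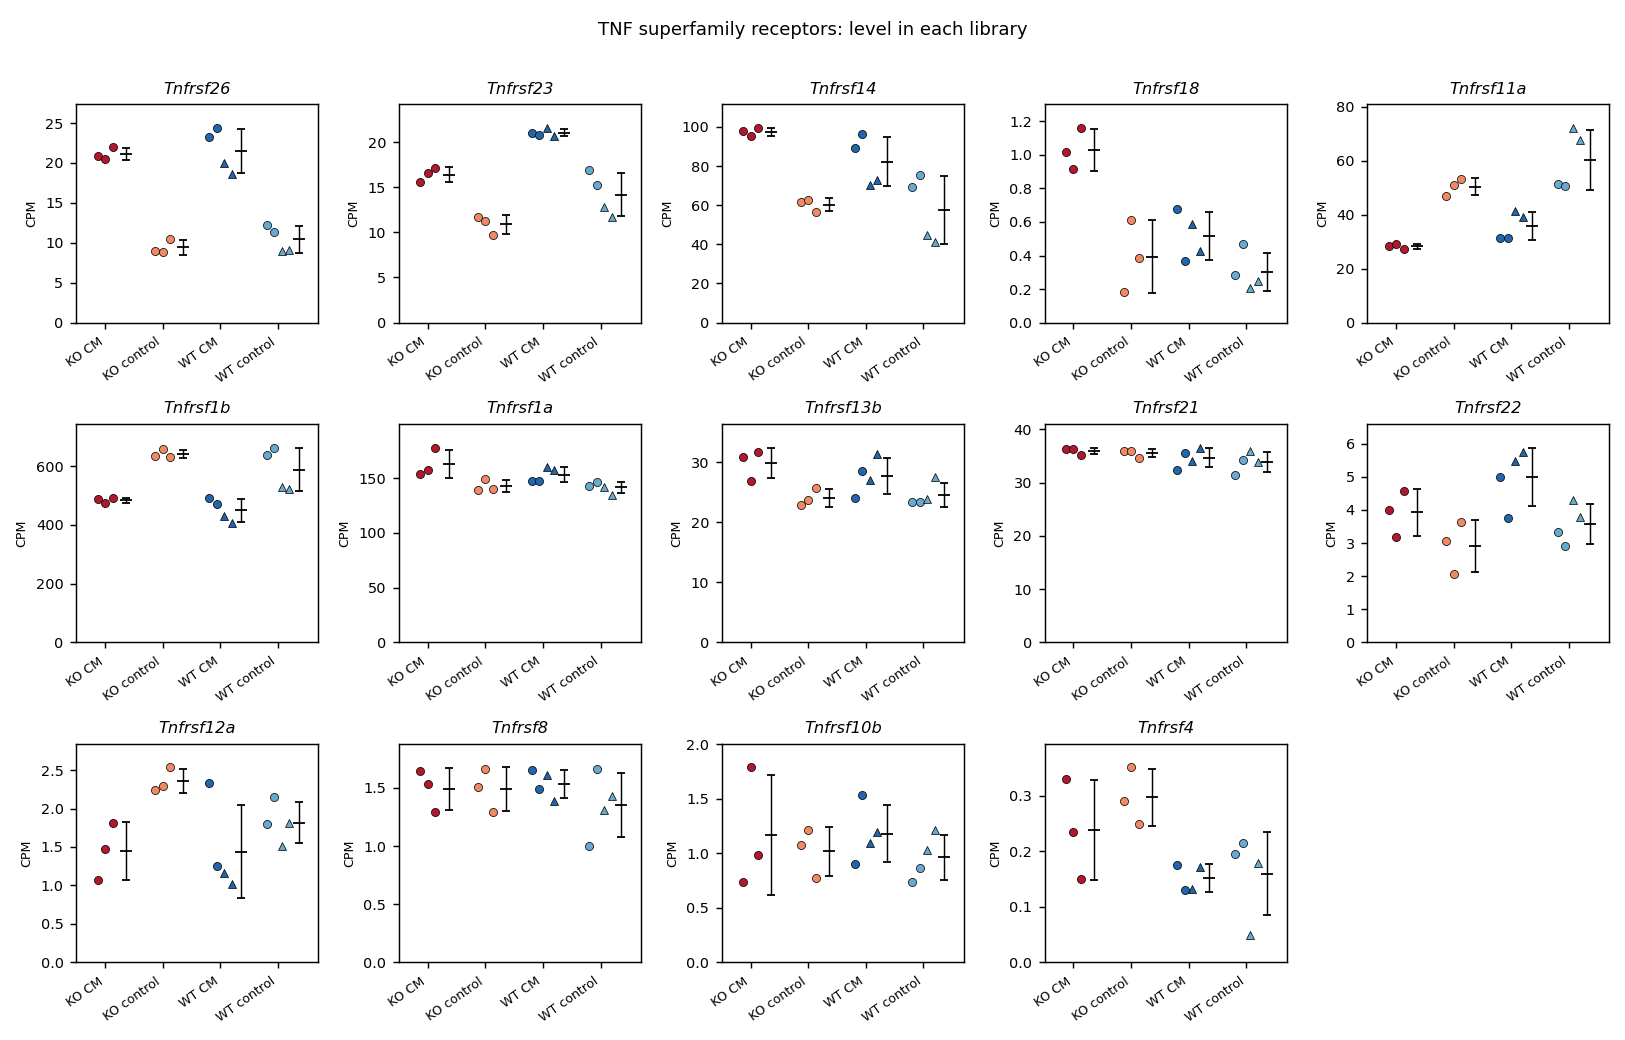
Level of the 14 tested receptor genes in each library (CPM, axes from 0), with triangles for WT libraries 3 and 4 and bars for the group mean ± SD. Tnfrsf1b lies between 473 and 491 CPM in KO CM and between 630 and 659 CPM in KO control, and for Tnfrsf14, Tnfrsf11a and Tnfrsf1b the triangles stand apart from the circles of WT control.

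The second question is how loss of Ezh2 changed the family. In CM, 0 of the 22 tested members were higher and 1 lower in KO than in WT macrophages (edgeR's quasi-likelihood test), where 3.1% of all tested genes were called higher and 1.49% lower. In control medium 0 were higher and 1 lower, where 2.82% of all genes were called higher and 2.5% lower. At an unadjusted p below 0.05 there were 6 members in each medium, where 23.4% of all genes in CM and 25.6% in control medium reached that. The members' median was 0.02 in CM and -0.05 in control medium, against 0 for all genes in each. DESeq2 called 0 higher and 3 lower in each medium, where it called 5.38% of all genes higher and 3.68% lower in CM and 5.23% higher and 5.81% lower in control medium. KO and WT libraries did not overlap for 6 members in CM and 8 in control medium, where 20.9 and 21.8% of all genes did not. The 2 members called by edgeR both depended on which WT libraries were used.

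Tnfsf13, the APRIL gene, was the member lower in KO CM, with 78.7, 83.4 and 77.3 CPM, against 90.2, 92.1, 100.5 and 107 CPM in WT CM. The groups did not overlap, and WT libraries 3 and 4 were the farthest from KO. The log2 change was -0.29 ± 0.07 (edgeR adjusted p = 0.0251), with -0.18 against only WT libraries 1 and 2 (edgeR adjusted p = 0.102) and -0.38 against only 3 and 4. The call was lost without WT CM library 3 (-0.27, 0.0702) or 4 (-0.24, 0.0759), without KO CM library 1 (-0.27, 0.0939) or 3 (-0.27, 0.121), and on the most-counted exon alone (-0.33, 0.0951). In control medium it had 88.98, 84.1 and 93.4 CPM in KO, against 93.6, 95.1, 104 and 102 CPM in WT (-0.15 ± 0.07, edgeR adjusted p = 0.167), with -0.08 against WT libraries 1 and 2 (edgeR adjusted p = 0.48) and -0.22 against 3 and 4 (0.00572). As given above, 87.7% of the Tnfsf13 count lay in exon entries counted identically in Tnfsfm13. For KO in CM Tnfsfm13 itself did not pass (-0.16 ± 0.05, edgeR adjusted p = 0.0914). Whether the difference belongs to Tnfsf13 alone was not tested.

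Tnfsf8, the CD30 ligand gene, was the member lower in KO control, with the library values given above, none of which overlapped between KO and WT in either medium. The log2 change was -0.62 ± 0.15 (edgeR adjusted p = 0.0303) in control medium and -0.46 ± 0.14 (edgeR adjusted p = 0.0825) in CM. In CM it was -0.43 against WT libraries 1 and 2 (edgeR adjusted p = 0.187) and -0.48 against 3 and 4 (0.0109), and it passed by DESeq2 (-0.46, 0.0341). Set against only WT libraries 1 and 2 it was -0.37 in control medium (edgeR adjusted p = 0.286), against only 3 and 4 it was -0.82, and with these library pairs as a term -0.50 (0.0591). The control medium call was also lost without WT control library 3 (-0.58, 0.0903) or 4 (-0.52, 0.0914), without KO control library 1 (-0.58, 0.112), 2 (-0.69, 0.0733) or 3 (-0.60, 0.104), and on the most-counted exon alone (-0.48, 0.0873).

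Other members differed between KO and one pair of WT libraries. Tnfrsf14 in control medium was -0.26 ± 0.06 (edgeR adjusted p = 0.0343) against WT libraries 1 and 2 and 0.50 ± 0.06 (edgeR adjusted p = 2.06e-05) against 3 and 4, opposite in sign and past the threshold each time. Tnfrsf11a in CM was -0.14 ± 0.07 (edgeR adjusted p = 0.327) against WT libraries 1 and 2 and -0.51 ± 0.06 (edgeR adjusted p = 4.96e-05) against 3 and 4. Tnfrsf1b in control medium was -0.02 ± 0.05 (edgeR adjusted p = 0.886) against WT libraries 1 and 2 and 0.29 ± 0.04 (edgeR adjusted p = 1.52e-04) against 3 and 4. Tnfrsf14 in CM was 0.08 against WT libraries 1 and 2 (edgeR adjusted p = 0.559) and 0.44 against 3 and 4 (6.43e-05), Tnfrsf1b in CM 0.01 (0.922) and 0.21 (0.00231), and Tnfrsf11a in control medium -0.01 (0.948) and -0.47 (5.10e-05). Among the ligand genes in CM, Tnfsf12 was -0.07 against WT libraries 1 and 2 (edgeR adjusted p = 0.669) and -0.24 against 3 and 4 (0.00674), and Tnfsf10 was 0.20 (0.609) and -0.48 (0.0266). Against WT libraries 3 and 4 alone, 17.8% of all genes were called higher and 17.7% lower in KO CM and 19.5% each way in KO control, while against 1 and 2 alone 2.62 and 0.967% were in CM and 2.2 and 1.65% in control medium. For these 5 genes genotype and the library pair cannot be told apart.

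Tnfrsf23, the decoy receptor gene, lay below WT in both media in KO without passing, at -0.36 ± 0.11 (edgeR adjusted p = 0.0775) in CM and -0.38 ± 0.11 (edgeR adjusted p = 0.0599) in control medium. With the library pairs as a term it was -0.46 in each medium and passed (edgeR adjusted p = 0.00903 in CM and 0.00878 in control medium). That term places KO with WT libraries 1 and 2, so these values are not independent of those against that pair. Against WT libraries 1 and 2 alone Tnfrsf23 was -0.34 ± 0.10 (edgeR adjusted p = 0.0632) in CM and -0.56 ± 0.10 (edgeR adjusted p = 0.00347) in control medium, and against 3 and 4 alone -0.37 ± 0.09 (edgeR adjusted p = 0.00588) in CM and -0.17 ± 0.09 (edgeR adjusted p = 0.176) in control medium. It also passed in CM without WT control library 1 (-0.36, 0.0411) or 4 (-0.36, 0.0475) and in control medium without WT control library 4 (-0.46, 0.0307), by DESeq2 in both (0.0274 in CM and 0.0171 in control medium), and in control medium with all exon entries (-0.41, 0.0499) and on the most-counted exon (-0.45, 0.0463). Tnfrsf26 in control medium passed with the pairs as a term (-0.30, edgeR adjusted p = 0.028). Its exon entries disagreed: against all WT control libraries 6 of 8 were higher in KO control and 2 lower. The longest entry, of 2376 bp, was -0.41 on the log2 scale.

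**Figure D5:**
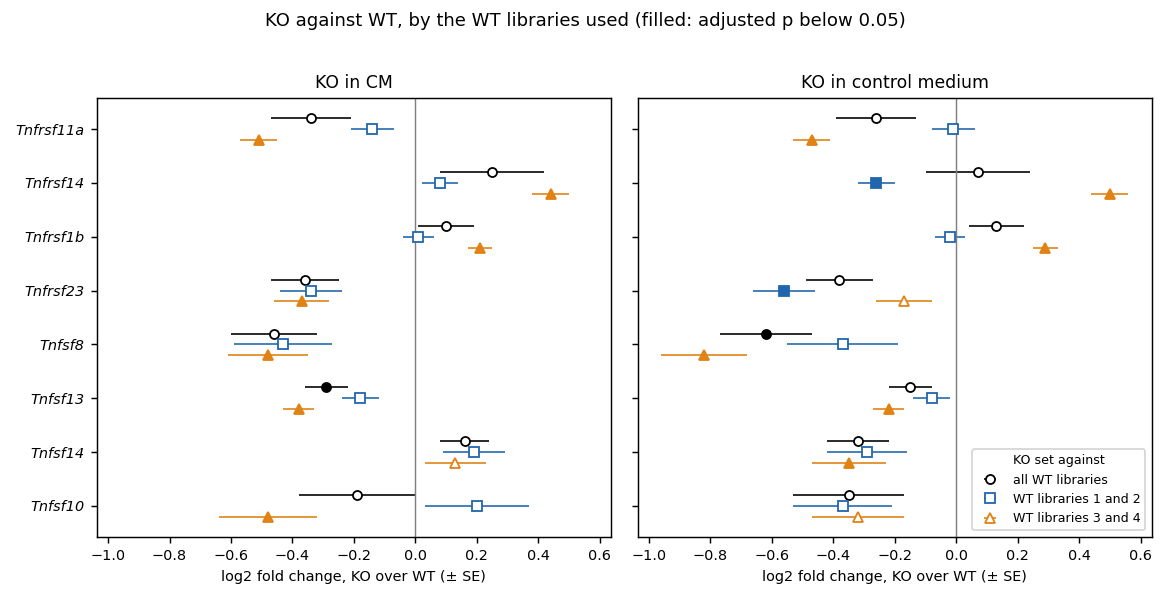
Log2 fold change of KO over WT (± SE) for 8 members in CM (left) and in control medium (right), against all WT libraries (black circles), WT libraries 1 and 2 (blue squares) and WT libraries 3 and 4 (orange triangles); filled symbols have an adjusted p below 0.05. Tnfrsf14 in control medium lies at -0.26 against libraries 1 and 2 and at 0.50 against 3 and 4.

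The third question is whether the response to CM differed between the genotypes. The interaction, KO response minus WT response, was called for 0 of the 22 members and for 0.0% of all tested genes by edgeR, with 1 member and 7.89% of all genes at an unadjusted p below 0.05. DESeq2 also called 0 members, where it called 58 genes higher and 22 lower of 13311 tested. The member at an unadjusted p below 0.05 in edgeR was Tnfsf14, at 0.48 ± 0.13 (edgeR adjusted p = 0.33), against 0.16 ± 0.08 (edgeR adjusted p = 0.266) for KO over WT in CM and -0.32 ± 0.10 (edgeR adjusted p = 0.0709) in control medium. Tnfsf14 in control medium passed without WT control library 2 (-0.35, 0.044), against WT libraries 3 and 4 alone (-0.35, 0.0337; against 1 and 2 it was -0.29, 0.228) and by DESeq2 (-0.33, 0.0438). The 3 members called for CM in KO and not in WT, Tnfrsf18, Tnfrsf13b and Tnfrsf1a, had interaction values of 0.59 ± 0.54 (edgeR adjusted p = 0.856), 0.13 ± 0.13 (edgeR adjusted p = 0.873) and 0.08 ± 0.08 (edgeR adjusted p = 0.894). Their responses are thus not shown to differ between KO and WT.

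The remaining family genes carry other names, and the list was followed beside the numbered members. The counts of this and the following lists stand beside shares over all tested genes of 20.0% higher and 18.2% lower in CM in KO and 19.3% and 18.0% in WT, and nothing particular to a list is read from them. The same holds for KO against WT, where 3.1% were higher and 1.49% lower in CM, and 2.82% and 2.5% in control medium. Of 6 tested receptors, 3 were higher in CM in KO and 2 in WT, with 0 lower in each. Relt rose to 27.7 ± 0.736 CPM in KO CM, against 5.27 ± 0.0729 CPM in KO control, and to 25.3 ± 3.58 CPM in WT CM, against 5.30 ± 0.542 CPM in WT control (2.40 ± 0.12, edgeR adjusted p = 3.89e-10 in KO and 2.25 ± 0.10, edgeR adjusted p = 1.18e-10 in WT). Fas, the death receptor of Fas ligand, rose by 1.14 ± 0.11 (edgeR adjusted p = 1.07e-06) in KO and 0.86 ± 0.10 (edgeR adjusted p = 3.57e-06) in WT. Ltbr was the third in KO, and the one member of this list higher in KO than in WT in CM (0.26 ± 0.06, edgeR adjusted p = 0.0181, with 0.26 against WT libraries 1 and 2 and 0.27 against 3 and 4), a call lost without KO CM library 1 (0.27, edgeR adjusted p = 0.0586) or 3 (0.23, 0.0996) or WT CM library 4 (0.24, 0.0647) and on the most-counted exon (0.03, 0.902). Cd40, the receptor of the T cell ligand CD154, changed by 0.28 ± 0.17 (edgeR adjusted p = 0.228) in KO and 0.07 ± 0.15 (edgeR adjusted p = 0.772) in WT. Of 7 ligands under other names 2 were tested, and Tnf was the one called, lower in both genotypes.

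Among 24 adaptor genes of the TRAF and death domain pathways, 5 were higher and 6 lower in CM in KO, and 3 higher and 5 lower in WT, close to the shares over all genes. Both genes of the necroptosis step rose, the kinase gene Ripk3 (1.08 ± 0.08, edgeR adjusted p = 3.47e-08 in KO and 1.07 ± 0.07, edgeR adjusted p = 6.46e-09 in WT) and its substrate Mlkl (1.37 ± 0.07, edgeR adjusted p = 6.03e-10 in KO and 1.07 ± 0.06, edgeR adjusted p = 1.16e-09 in WT). Ripk3 was also higher in KO than in WT in CM (0.33 ± 0.07, edgeR adjusted p = 0.0188) and in control medium (0.32 ± 0.07, edgeR adjusted p = 0.026). Against WT libraries 1 and 2 Ripk3 was 0.33 (edgeR adjusted p = 0.0365) in CM and 0.23 (0.165) in control medium, and against 3 and 4 it was 0.33 (0.00149) and 0.41 (3.60e-04). The CM call was lost without any 1 KO CM library (0.32 to 0.34, edgeR adjusted p = 0.0512 to 0.0831) or without WT CM library 3 (0.31, 0.0655) or 4 (0.34, 0.0519), and the control medium call without KO control library 2 (0.30, 0.106) or 3 (0.29, 0.105), without WT control library 3 (0.27, 0.0813) or 4 (0.30, 0.0773) and on the most-counted exon (0.33, 0.149). Map3k14, the NIK kinase through which RANK and the BAFF receptor feed the noncanonical NF-kB route, fell (-0.56 ± 0.06, edgeR adjusted p = 3.42e-06 in KO and -0.59 ± 0.05, edgeR adjusted p = 3.15e-07 in WT). Otulin, which removes linear ubiquitin chains, fell (-0.63 ± 0.09, edgeR adjusted p = 4.09e-05 in KO and -0.62 ± 0.08, edgeR adjusted p = 9.66e-06 in WT).

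Of 12 NF-kB subunit and inhibitor genes, 3 were higher and 5 lower in CM in KO, and 3 higher and 3 lower in WT. Bcl3 rose (0.83 ± 0.10, edgeR adjusted p = 6.61e-06 in KO and 0.94 ± 0.09, edgeR adjusted p = 2.99e-07 in WT), while the inhibitor gene Nfkbie fell (-0.93 ± 0.09, edgeR adjusted p = 4.79e-07 in KO and -0.67 ± 0.07, edgeR adjusted p = 2.70e-06 in WT), as did the subunit gene Nfkb1 (-0.52 ± 0.05, edgeR adjusted p = 1.38e-06 in KO and -0.38 ± 0.05, edgeR adjusted p = 7.28e-06 in WT). In KO CM against WT CM, 0 of these 12 genes were higher and 2 lower, where 3.1% of all tested genes were called higher and 1.49% lower. Nfkbie (-0.35 ± 0.08, edgeR adjusted p = 0.025) was 1 of these 2. It was -0.26 against WT libraries 1 and 2 (edgeR adjusted p = 0.185) and -0.42 against 3 and 4 (0.0012), and the call was also lost without KO CM library 2 (-0.35, 0.0703) or 3 (-0.30, 0.131), without WT CM library 3 (-0.34, 0.0691) or 4 (-0.31, 0.0842) and on the most-counted exon (-0.33, 0.0724).

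Of 5 genes whose products cut or process these ligands and receptors, 3 were higher and 1 lower in CM in KO, and 3 higher and 2 lower in WT. Adam17, the sheddase of TNF and its receptors, fell (-0.34 ± 0.06, edgeR adjusted p = 2.75e-04 in KO and -0.37 ± 0.05, edgeR adjusted p = 2.87e-05 in WT), whereas Rhbdf2, which carries that enzyme to the surface, rose by 0.44 ± 0.08 (edgeR adjusted p = 2.36e-04) in KO and 0.39 ± 0.07 (edgeR adjusted p = 2.02e-04) in WT. Furin, the protease that cuts APRIL and BAFF, rose by 0.72 ± 0.14 (edgeR adjusted p = 6.25e-04) in KO and 0.71 ± 0.12 (edgeR adjusted p = 1.90e-04) in WT. Adam10 rose by 0.49 ± 0.06 (edgeR adjusted p = 1.49e-05) in KO and 0.49 ± 0.05 (edgeR adjusted p = 3.35e-06) in WT.

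Of 6 tested genes named as induced by TNF, 2 were higher and 1 lower in CM in KO, and 2 higher and 2 lower in WT. Tnfaip3, the NF-kB inhibitor A20, fell (-0.56 ± 0.09, edgeR adjusted p = 2.33e-04 in KO and -0.48 ± 0.08, edgeR adjusted p = 2.24e-04 in WT), and Tnfaip8l1 rose by 1.31 ± 0.19 (edgeR adjusted p = 5.10e-05) in KO and 1.09 ± 0.16 (edgeR adjusted p = 7.54e-05) in WT. Of 8 tested osteoclast genes that lie downstream of RANK, 3 were higher and 3 lower in each genotype. Acp5, the tartrate-resistant acid phosphatase, had 20.9 ± 2.005 CPM in KO CM and 2.39 ± 0.306 CPM in KO control, and 23.5 ± 1.29 CPM in WT CM and 2.99 ± 0.523 CPM in WT control (3.12 ± 0.14, edgeR adjusted p = 1.27e-10 in KO and 2.97 ± 0.12, edgeR adjusted p = 2.87e-11 in WT). The cathepsin K gene Ctsk also rose (1.03 ± 0.13, edgeR adjusted p = 9.29e-06 in KO and 0.55 ± 0.11, edgeR adjusted p = 6.96e-04 in WT), whereas the integrin gene Itgb3 (-1.28 ± 0.18, edgeR adjusted p = 4.74e-05 in KO and -1.52 ± 0.16, edgeR adjusted p = 1.61e-06 in WT) and Fos (-3.32 ± 0.17, edgeR adjusted p = 6.12e-10 in KO and -3.08 ± 0.14, edgeR adjusted p = 1.56e-10 in WT) fell. Ctsk was the one gene of that list lower in KO than in WT in control medium (-0.62 ± 0.12, edgeR adjusted p = 0.00938), with -0.56 against WT libraries 1 and 2 and -0.66 against 3 and 4, both past the threshold (edgeR adjusted p = 0.0186 and 0.00195). That call was lost without KO control library 2 (-0.51, 0.0636) and on the most-counted exon (-0.36, 0.159).

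The remaining 9 members were too low to be tested, and with Tnfrsf4 and Tnfsf15 they make up the 11 that stayed below 1 CPM in every group. Counts over all 14 libraries were 106 for Tnfsf4 (OX40 ligand), 92 for Tnfrsf17 (BCMA), 83 for Tnfsf18 (GITR ligand) and 41 for Tnfrsf9 (CD137). They were 8 for Tnfrsf13c (BAFF receptor), 5 for Tnfrsf11b, 2 for Tnfsf11, 1 for Tnfrsf25 (death receptor 3) and 0 for Tnfrsf19 (TROY). A count of 0 in 1 library allows a level of up to 0.035 to 0.0745 CPM, taken as 3 counts of its total, and covers counting error only. For 2 ligand genes that changed in CM, Tnfsf9 and Tnfsf13b, a receptor partner (Tnfrsf9 and Tnfrsf13c) was thus among these lowest genes. Another receptor gene for BAFF, Tnfrsf13b (TACI), had group means of 24.04 to 29.86 CPM, with the limit on its exon entries given above.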

How the data were processed

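The authors deposited one table of raw counts per exon entry for all 14 libraries. The submitters' processing notes name HISAT2 and mm10, and the counting tool, annotation and strand setting are not given in the sources used here. Libraries were stranded mRNA libraries read as pairs of 150 bases, per the labels' protocols. Groups and replicate numbers come from the labels, and the column names match those in the sample descriptions.

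The table lists an exon once for each transcript model. Repeats of an entry within a gene (196941 of 427386 entries, with 48.6% of the counts) were dropped. The 230445 distinct entries were summed per symbol. Entries of different length were kept as distinct, and whether they overlap was not tested. Since a fragment across exons may count once per exon, these sums are not fragment numbers. One edgeR 4.0.16 fit (R 4.3.3, quasi-likelihood, TMM, filterByExpr with minimum count 10 and minimum total 15) with a mean for each group covered 13311 genes. It gave CM in KO, CM in WT, KO in CM, KO in control medium and their interaction, with Benjamini-Hochberg adjustment over all tested genes. CPM are counts per M (megacounts) of the TMM-scaled total. Gene positions and overlaps come from GENCODE vM21 on GRCm38. The script was tested on simulated data.

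The members, gene lists and motifs were chosen with earlier results of these data known. Every member is accounted for, and of each other list up to 4 genes with the smallest p and a mean of 1 CPM could be named. WT libraries of the same number correlated across media in their deviations from the group means (0.55, 0.51, 0.67 and 0.68, each above the limit of 0.1), but so did WT libraries of the same pair with other numbers (0.49 to 0.63). KO libraries did not (-0.01, -0.11 and 0.05). Alternatives were DESeq2 1.42.0, its size factors, library totals, no filter, all exon entries, the most-counted exon, a replicate block, the WT library pairs as a term or left out, and each library left out. Leaving out WT libraries 1 and 2, and the alternatives for genes of the other lists, were added after the data were seen.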

Additional observations from a re-analysis of the deposited data

Results flagged for a closer look

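One value stood apart from the rest of its group. Tnfrsf13b (TACI) had 27.5 CPM in WT control library 4, against 23.3, 23.4 and 23.9 CPM in WT control libraries 1, 2 and 3, a gap above Dixon's critical value of 0.829 for 4 samples. Over 40 groups of member values examined this was the 1 such case, and chance flags about 1 in 20. Without that library Tnfrsf13b passed for CM in WT (0.24, edgeR adjusted p = 0.0455).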

How the results depend on the processing

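Of the results of the 20 members at 1 CPM or more, 49 passed in at least 1 fit. Those that passed in the reported fit kept direction and call in 567 of their values under the alternatives and lost the call, in the same direction, in 32. Those that had not passed did so in 66 values, and 11 values of these 49 results changed sign. Among 51 results that passed in no fit, 29 changed sign, in 96 values of at most 0.28 in size after the change. The counts of members higher or lower in CM were within 1.5 times the main count in WT under every alternative. In KO, 7 members instead of 4 were lower with library totals alone (27.2% of all genes), with the WT library pairs as a term (24.5%) and without WT libraries 3 and 4 (22.6%) or 1 and 2 (23.9%), against 18.2% in the reported fit. For KO in control medium, 2 were higher without WT libraries 1 and 2 (19.5% of all genes), and instead of 1 lower (2.5%) there were 3 by DESeq2 (5.81%), 2 with the replicate block (2.88%), 2 with the pairs as a term (3.86%), 2 without WT libraries 3 and 4 (1.65%), 4 without WT libraries 1 and 2 (19.5%) and 2 with all exon entries (2.22%); leaving out 1 library gave 0 to 2. For KO in CM, 2 were higher without WT libraries 1 and 2 (17.8%), and instead of 1 lower (1.49%) there were 3 by DESeq2 (3.68%), 2 with the replicate block (1.34%), 2 with the pairs as a term (2.46%), 0 without WT libraries 3 and 4 (0.967%), 6 without WT libraries 1 and 2 (17.7%) and 0 on the most-counted exon (1.25%); leaving out 1 library gave 0 to 2. The replicate block, which by the check pairs WT libraries only, also called Tnfrsf23 lower for KO in CM (-0.40, edgeR adjusted p = 0.0442) and for KO in control medium (-0.42, 0.0354), and for CM in KO Tnfrsf22 (0.45, 0.0105) and Tnfsf12 (-0.17, 0.0286); beyond these and the WT values in the report it changed no other call. The sign changes among the 49 results, none of which had passed in the reported fit, were Tnfrsf14 for KO in control medium (-0.17 with the pairs as a term, -0.26 without WT libraries 3 and 4, -0.04 on the most-counted exon, and -0.06 to 0.23 with 1 library left out, below 0 without WT control library 3 (-0.03) or 4 (-0.06)) and in CM (-0.02 with the pairs as a term), Tnfrsf1b for KO in control medium (-0.02 without WT libraries 3 and 4) and in CM (-0.02 with the pairs as a term), Tnfrsf26 for KO in control medium (0.06 without WT libraries 1 and 2), Tnfsf10 for KO in CM (0.20 without WT libraries 3 and 4) and Tnfsf12 for CM in KO (0.00 on the most-counted exon). The cause was not tested. Depth limits the 9 untested members, which had 0 to 106 counts over all 14 libraries, and 3 or 4 libraries a group limit the genotype comparison.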
